A study of Cardamine hirsuta with 6 samples.

Results

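The data described here are the DAP-seq peaks of ChCUC1 that were annotated to exon 2 or a later exon of a *Cardamine hirsuta* gene. They were found by joining the deposited list of reproducible peaks, by chromosome, start and end, to the annotation sheet that the study supplies for them, and by taking each peak annotated to an exon with a number of 2 or more. Of the 2432 reproducible peaks, 1997 had an annotation row that could be used here, and 379 of these were in a later exon (19.0%, 95% exact binomial interval 17.3 to 20.8%). The rows held are those with the highest −log10 p, from 26.4 upwards, and none of the 435 peaks without a row had a fold enrichment above 2.56, so weak later-exon peaks are missing from the set.

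ChCUC1 is the *C. hirsuta* CUC1 protein, and in DNA affinity purification sequencing (DAP-seq) it was offered sheared genomic DNA in vitro. There were 3 samples of the ChCUC1_halo group, in which ChCUC1 carried an N-terminal HaloTag and was made in a wheat germ translation system, and 3 samples of the halo group, the tag alone. Both groups used genomic DNA of the genotype Oxford, for which the tissue label reads seedlings while the protocol names rosette leaves, and both were pulled down with Magne HaloTag beads. The deposited files comprise the reproducible list, selected by the irreproducible discovery rate, and 3 single-library lists, each from the reads of 1 ChCUC1 library set against pooled Halo reads. Of these 3, the whole-library list holds 4778 peaks, and 2 lists called on pseudoreplicates (random draws from the reads of a library) hold 3753 and 3253 peaks and are named the longer and the shorter pseudoreplicate list. By their names, the 3 lists carry different library labels, and the longer pseudoreplicate list is of another run than the others. Differences between these lists thus cannot be told apart from differences of library or run. The single-library lists hold part of the evidence from which reproducible peaks were selected, so they are not independent of that list. They carry no read counts, the depth of each library is unknown, and intervals over peaks cover counting error only.

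CUC proteins are transcription factors of the plant-specific NAC family, known for setting organ boundaries in the shoot and for shaping leaf margins. A plant gene is copied from its start through exons and introns, and the introns are then cut from the RNA, so a later exon lies inside the transcribed gene, beyond at least 1 intron. Binding sites of transcription factors are usually sought upstream of genes. The DNA used in DAP-seq carries no chromatin proteins, and sequences inside exons are offered to the protein along with those in promoters. The assay thus shows where ChCUC1 can bind purified DNA, not where it is bound in a leaf cell.

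More of the exon peaks were in later exons than in first exons. Of 671 peaks in exons, the 379 later-exon peaks made up 56.5% (52.6 to 60.3%). Of the 292 peaks in first exons, 178 were in genes with a single exon, which cannot have a later one. Among the 493 exon peaks in genes with 2 or more exons, 76.9% were in a later exon (72.9 to 80.5%). Peaks just downstream of a gene start can be counted at promoter-TSS, the stretch around the start, as 85 bp downstream at CARHR169610. Such peaks are then not in the first-exon count. The length of DNA that first and later exons cover was also not computed, so these shares do not show a preference for either. The annotation has no category for untranslated regions, and whether a peak lay over coding sequence was not analysed here.

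The 379 peaks fell in 373 genes, 6 of which held 2 peaks each. Exon 2 held 140 of the peaks, exon 3 held 77, exon 4 held 42 and exon 5 held 35. Exons 6 to 9 together held 55 and exon 10 and later 30, the last in exon 21. The genes had from 2 to 25 exons, and 69 of the peaks were in exon 2 of a gene with 2 exons. The last exon of its gene held 166 peaks (43.8% of the members), and an inner exon held 213. Peaks were found on all 8 chromosomes and on 10 scaffolds. By chromosome, their share of the annotated peaks ran from 16.0% on chromosome 3 (11.7 to 21.3%) to 24.2% on chromosome 2 (18.1 to 31.1%), and these intervals overlap.

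**Figure D1:**
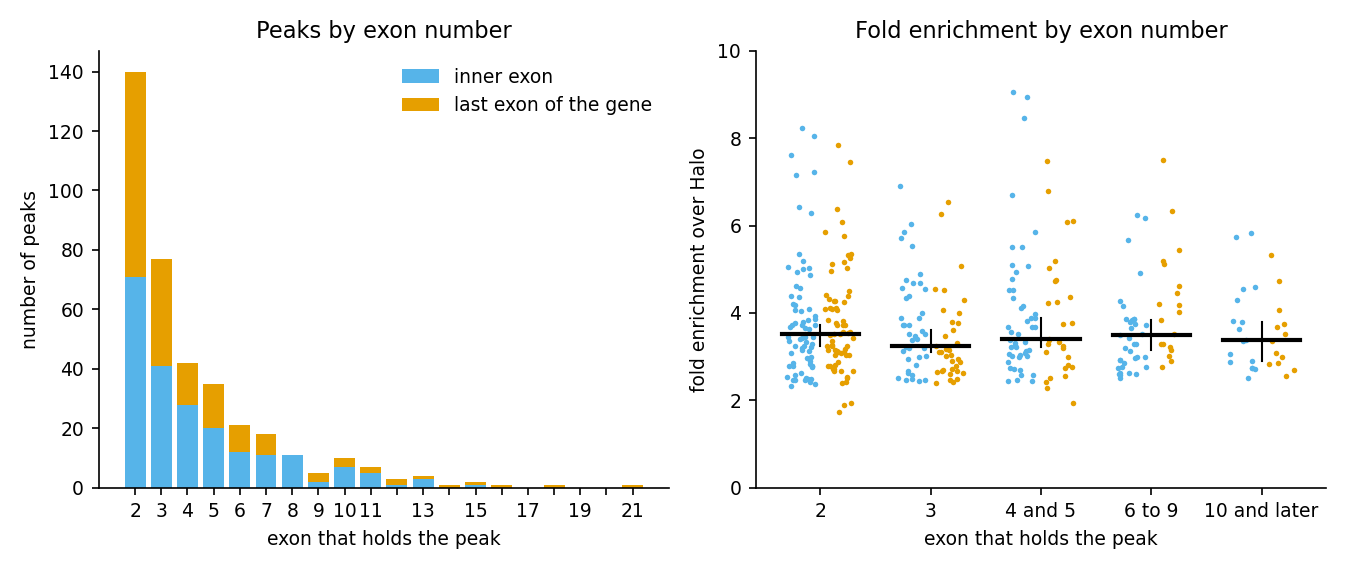
Left, the number of later-exon peaks by the number of the exon that holds them, with inner exons in blue and the last exon of the gene in orange. Right, the fold enrichment over Halo of each peak, with the median as a black bar and its 95% interval as a vertical line. Exons 4 and 5, 6 to 9, and 10 and later are pooled on the right. Exon 2 alone holds 140 of the 379 peaks, whereas the medians of the 5 classes plotted lie between 3.23 and 3.51.

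The sheet gives the distance of each peak from the nearest gene start. In all 111 pairs of neighbouring peaks assigned to 1 gene start, the distances differed as the peak centres do, to within 1 bp, so distances run from the centre. The summit of a later-exon peak lay a median of 12 bp from its centre, with an upper quartile of 64.75 bp and at most 553 bp. Widths ran from 383 to 1621 bp. Whether the annotated exon also holds the summit or the whole peak was not analysed here. For 348 of the 379 peaks the gene of the exon was also the gene with the nearest start, and their centres lay from 220 to 12395 bp downstream of it, with a median of 1289 bp. Of these, 121 lay within 1000 bp and 320 within 3000 bp. The farthest was in exon 5 of 5 of CARHR289580, which the study's lists describe as a pre-mRNA cleavage complex II gene, with a fold enrichment of 1.94. For the other 31 peaks another gene started nearer, and 24 of them were in the last exon of the gene that held them. A list of genes by nearest start would thus assign these 31 peaks to a neighbour, as for the peak in exon 9 of 9 of the *ABCB14* match CARHR027460, to which the start of CARHR027470 was nearest.

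The fold enrichment over Halo is the height of a peak relative to the control, as the authors' peak caller gave it. Over the 379 peaks it ran from 1.74 to 9.06 with a median of 3.43 (95% interval of the median 3.30 to 3.58), and the middle 50% of the peaks lay between 2.90 and 4.28. Enrichment above 5 was reached by 58 peaks, and 111 were below 3. The −log10 p ran from 26.4 to 464 with a median of 67.6, and 320 peaks (84.4%) had the top reproducibility score of 1000. That share was 88.4% in first exons, 86.0% in introns and from 79.1 to 81.1% at the other positions. The lowest fold enrichment, 1.74, was at exon 2 of 2 of CARHR131270.

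By place in the gene, the median fold enrichment was 3.51 in exon 2 (3.25 to 3.73), 3.23 in exon 3 (3.10 to 3.61), 3.39 in exons 4 and 5 (3.22 to 3.88), 3.50 in exons 6 to 9 (3.15 to 3.84) and 3.37 in exon 10 and later (2.90 to 3.79). Taken apart, exon 4 had a median of 3.36 (3.15 to 3.76) over 42 peaks and exon 5 had 3.82 (3.13 to 4.36) over 35. The median was 3.37 in last exons (3.22 to 3.68) and 3.45 in inner exons (3.30 to 3.69). Each of these intervals overlaps the others. Across the members, Spearman's rho of fold enrichment was 0.00 with the number of exons in the gene and 0.39 with the width of the peak. It was 0.05 with the distance to the nearest gene start, which for 31 peaks is the start of another gene. These are descriptions over 379 peaks from the same libraries, without a test.

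The peak with the highest fold enrichment of the set was in exon 4 of 5 of CARHR242560, the match of *CAD-5*, whose product in *A. thaliana* reduces cinnamaldehydes to the alcohols from which lignin is made. It lay on chromosome 7 from 21424740 to 21425347, 1216 bp downstream of the gene start. Its fold enrichment was 9.06 in the reproducible list and, in the order whole-library, longer pseudoreplicate and shorter pseudoreplicate list, 8.81, 8.0 and 7.97. Next came a peak in exon 4 of 13 of CARHR273640, described as a putative respiratory burst oxidase-H, of a family of membrane enzymes that make reactive oxygen outside the cell. This peak, on chromosome 8 from 17671228 to 17671835, had 8.95 in the reproducible list and 8.90, 7.67 and 9.23 in the others, so the order of these 2 genes changed with the list. Its −log10 p of 464 was the highest of the set.

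The third to the fifth were at genes for which no description was used here. CARHR129030, the match of AT2G34880, had 8.47 in exon 5 of 8, with 8.46, 8.63 and 5.89 in the single-library lists. CARHR249380 had 8.24 in exon 2 of 5, with 7.77, 7.52 and 6.67. CARHR048310, the match of AT1G76290, had 8.05 in exon 2 of 4, with 7.73, 6.76 and 3.83, the widest spread among the 15 highest. Its peak was 1621 bp wide, the widest of the set, and the call in the shorter pseudoreplicate list had its summit 976 bp from the reproducible summit, so that value was taken at another point of the same region.

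Of the 15 highest peaks, 5 were at genes with a description. Besides the peaks above these were CARHR138190, a pirin-like gene, with 7.50 in exon 7 of 7, CARHR118390, the match of *IQD4*, with 7.48 in exon 5 of 5, and CARHR105160, the match of *AGT1*, with 7.15 in exon 2 of 5. IQD proteins bind calmodulin, and AGT1 is an aminotransferase of photorespiration, the recovery of carbon that plants lose when Rubisco takes up oxygen. At *AGT1* the single-library lists gave 7.07, 6.41 and 7.57, and at *IQD4* 7.60, 7.38 and 6.76. The pirin-like gene had 7.40, 7.45 and 7.27, the closest values of these 3 genes. The other members of the 15 were CARHR274390 with 7.85, CARHR221980 with 7.61, CARHR172030 with 7.46, CARHR062360 with 7.23, CARHR278780 with 6.91, CARHR045760 with 6.79 and CARHR284140, on a scaffold, with 6.71. All 15 were called in each single-library list. Apart from the 3.83 at CARHR048310, their values in any list lay between 5.54 and 9.23, above the upper quartile of the members.

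**Figure D2:**
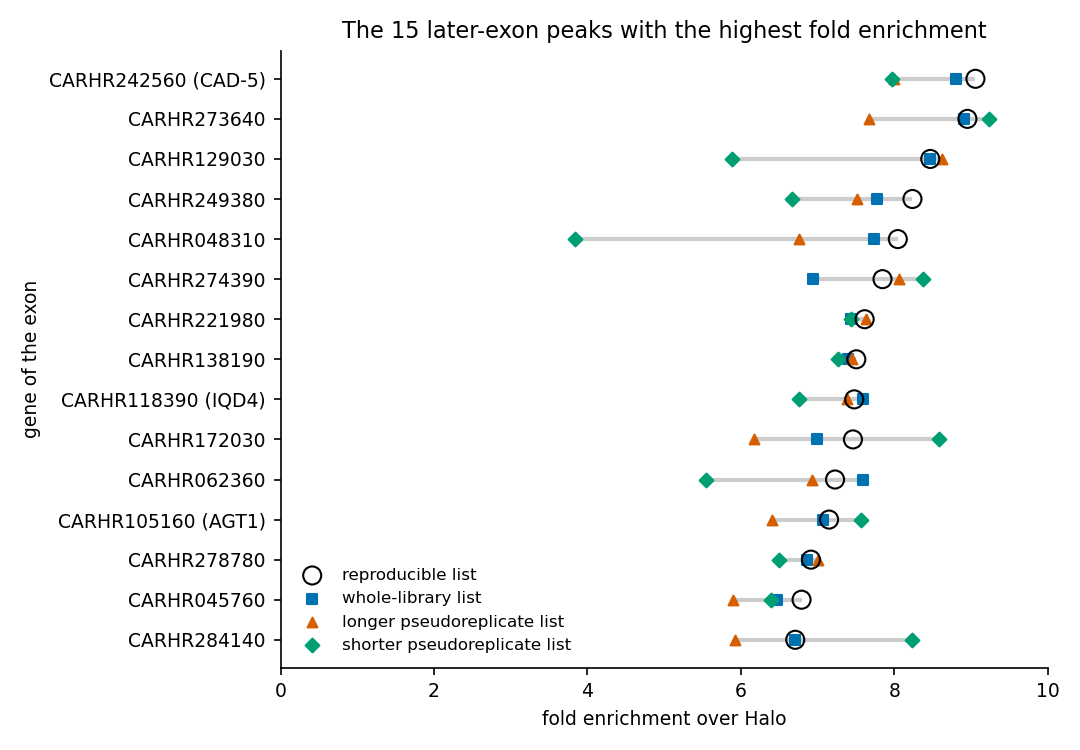
Fold enrichment over Halo (horizontal axis) of the 15 later-exon peaks with the highest value, by the gene of the exon, in the reproducible list (open circles) and the 3 single-library lists (filled symbols). The grey bar spans the 4 lists. All 15 were called in every list, and CARHR048310 spreads most, from 3.83 to 8.05.

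The whole-library and the longer list held nearly all later-exon peaks, and the shorter list fewer, where a call is an overlap of at least 1 bp. The whole-library list called 379 of the 379, against 99.8% of all annotated peaks. The longer pseudoreplicate list called 373 (98.4%, 96.6 to 99.4%), against 96.7%, and the shorter one called 300 (79.2%, 74.7 to 83.1%), against 74.3%. Each of the 3 lists called 296 peaks (78.1%, 73.6 to 82.2%), against 72.4% of all annotated peaks, so the members' shares were near those of the whole set. Another 81 peaks were called in 2 lists and 2 peaks in 1 list. These 2 were at CARHR154740, described as a protein kinase-like gene, with a fold enrichment of 2.94, and at CARHR040340 with 2.50, and both were called in the whole-library list only.

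Which peaks the shorter list called went with their strength. Of the 95 later-exon peaks with the lowest fold enrichment it called 50.5% (40.1 to 60.9%), of the next 95 peaks 73.7% (63.6 to 82.2%), of the next 94 peaks 92.6% (85.3 to 97.0%) and of the highest 95 peaks 100% (96.2 to 100%). The peaks it did not call had values from 1.74 to 4.20 with a median of 2.79. Peaks called in all 3 lists had a median of 3.74, and those called in 2 had a median of 2.77. By place in the gene the shares differed less. The shorter list called 79.5% of the peaks in last exons (72.6 to 85.4%) and 78.9% of those in inner exons (72.8 to 84.2%). By exon number its shares ran from 75.3% in exon 3 (64.2 to 84.4%) to 88.1% in exon 4 (74.4 to 96.0%), and these intervals overlap.

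**Figure D3:**
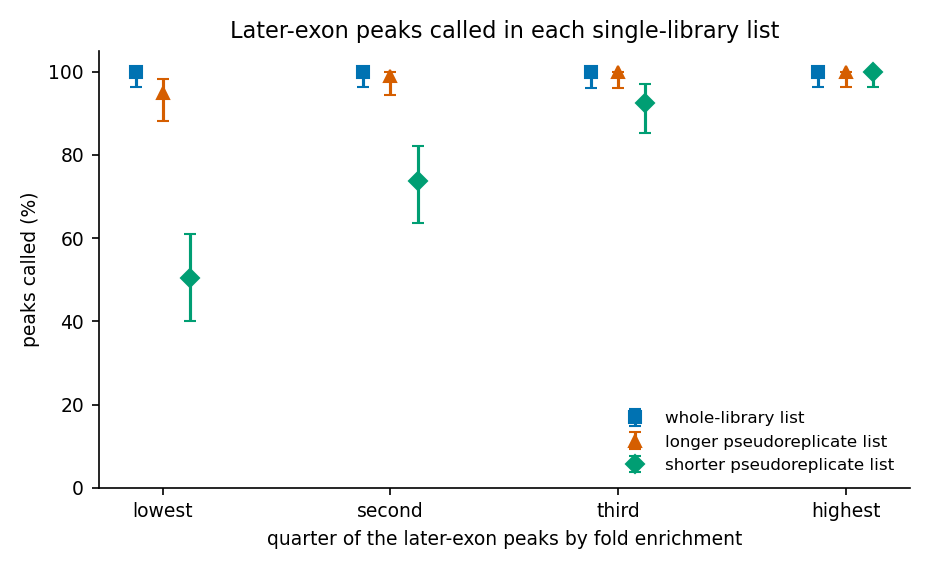
Percent of later-exon peaks called in each single-library list (vertical axis) for the peaks ranked by fold enrichment in the reproducible list and cut into 4 sets of 94 or 95 (horizontal axis). Error bars are 95% exact binomial intervals. The share in the shorter pseudoreplicate list climbs from 50.5% in the lowest set to 100% in the highest, while the other lists stay above 94%.

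Where a peak was called, the lists placed it at nearly the same point. The summit lay a median of 5 bp (whole-library list), 8 bp (longer) and 11 bp (shorter pseudoreplicate list) from the reproducible summit, and the summit of the peak with the largest overlap was within 100 bp for 98.4%, 95.2% and 96.7% of the peaks called. Widths differed more, with a median of 502 bp in the reproducible list against 494, 660 and 225 bp in the others. When the overlap had to cover 50% of each peak, which a peak of 225 bp cannot do over one of 502 bp, the shorter list called 16.1% of the members and 56 were called in all 3 lists. For the 296 peaks called in each list, the highest of the 4 fold enrichments was a median of 1.23 times the lowest, and at most 2.10 times. Spearman's rho of fold enrichment with the reproducible list was 0.96, 0.90 and 0.81 over the members called. Of the 296, 36 peaks were above a fold enrichment of 5 in all 4 lists.

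Set against the other positions, later-exon peaks were stronger than those at transcript ends and between genes, by a small margin. The geometric mean fold enrichment was 3.61 in later exons, 3.39 at transcript ends and 3.35 in intergenic DNA, a ratio of 1.07 (1.02 to 1.11) and of 1.08 (1.03 to 1.13). These are contrasts of a linear model of log2 fold enrichment over all annotated peaks with robust standard errors, and the adjusted p was 0.0108 for both after Benjamini-Hochberg adjustment over 6 contrasts (n = 379 against n = 300 and n = 175 peaks). The difference did not pass against first exons (ratio 1.03, 0.98 to 1.08, adjusted p = 0.273), introns (0.99, 0.95 to 1.04, adjusted p = 0.827), promoter-TSS, the stretch around a gene start (1.04, 0.999 to 1.08, adjusted p = 0.106), or distal promoters (1.05, 0.996 to 1.10, adjusted p = 0.106), with n = 292, n = 243, n = 392 and n = 215 peaks. The spread in this model is that between peaks, which share libraries, and not between samples. All annotated peaks lay above a −log10 p of 26.4, so the contrasts cover peaks above that limit only. In the shorter pseudoreplicate list the ratios to transcript ends and intergenic DNA were both 1.05 and neither passed (n = 300 peaks against n = 211 and n = 128, adjusted p = 0.391). The ratio to promoter-TSS was 0.997 there (adjusted p = 0.904, n = 300) and passed in the longer pseudoreplicate list (1.05, adjusted p = 0.0386, n = 373).

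**Figure D4:**
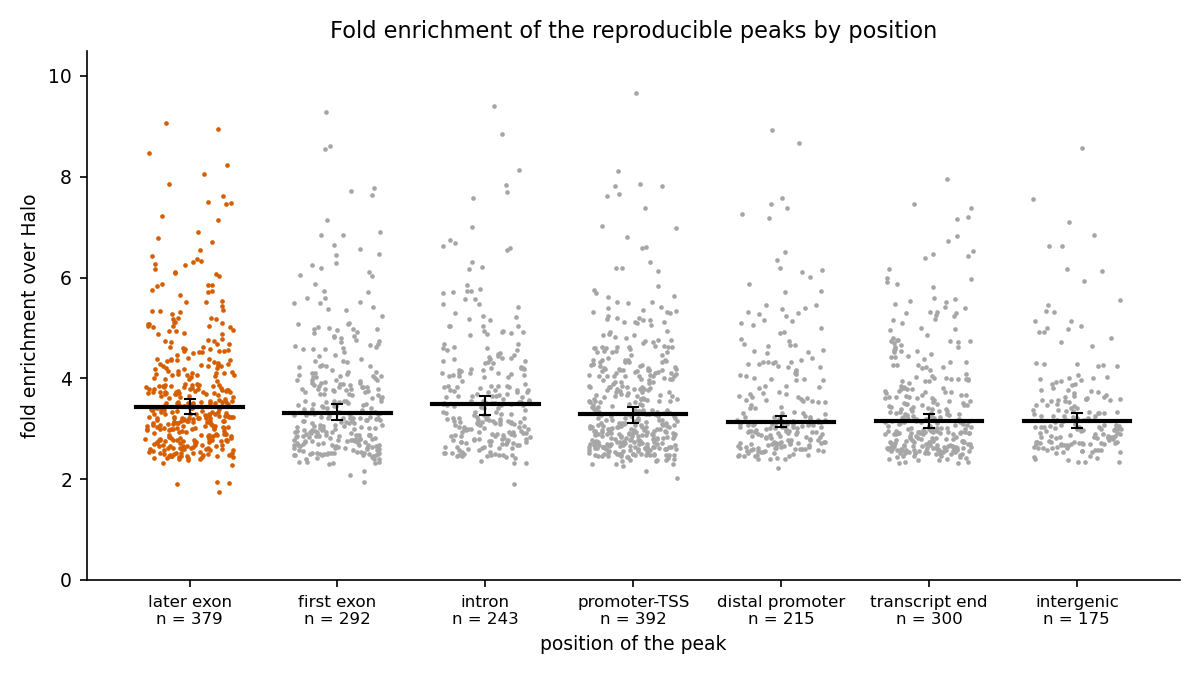
Fold enrichment over Halo of every annotated reproducible peak by position, with later exons in orange. Black bars are medians with their 95% intervals, and n is the number of peaks. The median is 3.43 in later exons, 3.50 in introns and 3.15 in intergenic DNA, and the clouds of points overlap almost entirely.

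Later-exon peaks were also a little wider than most others. Their geometric mean width was 556 bp, against 529 bp in introns (ratio 1.05, 1.01 to 1.09, adjusted p = 0.00951), 516 bp at promoter-TSS (1.08, 1.04 to 1.11, adjusted p = 1.95e-05), 509 bp at transcript ends (1.09, 1.06 to 1.13, adjusted p = 1.76e-06) and 513 bp in intergenic DNA (1.08, 1.04 to 1.13, adjusted p = 0.000152), in the same linear model with n = 379 later-exon peaks. The difference from first exons, with 557 bp, did not pass (n = 292, ratio 1.0, 0.96 to 1.04, adjusted p = 0.945), nor did that from distal promoters, with 541 bp (n = 215, 1.03, 0.98 to 1.07, adjusted p = 0.244). Peaks over 1000 bp numbered 11, with fold enrichments from 2.42 to 8.05 and a median of 3.52. The shorter pseudoreplicate list called 73.3% of the peaks in first exons and 71.2% of those at promoter-TSS, but the differences from later exons did not pass (Fisher's exact test, two-sided, adjusted p = 0.364 and 0.111 over 9 tests).

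An *A. thaliana* match was given for the gene of the exon in 301 of the 379 peaks. Names and descriptions were available for 86, because they come from the study's lists of genes that responded to ChCUC1 or were bound in both assays. The gene groups cover only those 86 genes. The list of 422 genes bound in both DAP-seq and ChIP-seq, for which a DAP-seq peak was a condition, holds 69 of the 373 member genes. Later-exon peaks were 19.0% of the annotated peaks, and the count of listed genes with peaks at other positions was not computed. The 69 genes are thus not read as a trait of later exons. The median over the peaks of these genes was 3.50, against 3.41 for the other 310 members. Groups were formed from words of the descriptions, apart from *CYP78A5*, which was placed among the hormone genes by name, and no test was run on them. The words for transporters missed *ECA2*, a calcium ATPase. For each group, the count of peaks called in all 3 single-library lists stands against 78.1% for all members and 63 of the 86 described ones. The described members had a median fold enrichment of 3.37.

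Enzymes of the cell wall and of carbohydrates made up 13 of the described genes, with a median fold enrichment of 3.83, against 3.43 over all members, and each was called in all 3 single-library lists. After *CAD-5* came *IRX12* (CARHR132660), a laccase that in *A. thaliana* polymerises lignin in secondary walls, with 5.84 in exon 5 of 6 and 5.18, 5.24 and 6.73 in the single-library lists. *MRH4* (CARHR182330), described as a COBRA-like protein and known from root hairs of *A. thaliana*, had 5.33 in exon 2 of 2. A glycosyl hydrolase family 10 gene (CARHR259270) had 4.68, a pectin lyase-like gene (CARHR071920) 4.63 and *PGSIP5* (CARHR008890) 4.37. The remaining 7, among them the endoglucanase genes *AtGH9C2* and *ATCEL5* and the beta glucosidase genes *BGLU28* and *BGLU4*, lay between 2.77 and 3.83.

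Transporters made up another 13, with a median of 3.86, and again each was called in all 3 lists. *PHO1;H1* (CARHR061560), whose *A. thaliana* product exports phosphate, had 5.19 in exon 2 of 12, with 5.46, 5.06 and 5.16 in the single-library lists. *ABCB14* (CARHR027460) had 5.19 as well, with 5.56, 6.51 and 3.25, a far wider spread around the same value. *TT12* (CARHR169440), a vacuolar transporter for precursors of seed coat tannins, had 5.01, *CHX17* (CARHR231090), a cation antiporter, 4.76, *PGP2* (CARHR233470) 3.88 and *SHB1* (CARHR232760) 3.87. The lowest was *PGP4* (CARHR142370), an ABCB protein that moves auxin in *A. thaliana* roots, with 2.75 in exon 6 of 12.

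The 10 transcription factor genes had a median of 3.23, and 8 were called in all 3 lists. *WRKY61* (CARHR019510) stood highest with 6.10 in its last exon, exon 4, and 5.76, 5.41 and 6.72 in the single-library lists. The next, *IDD4* (CARHR288910), had 3.78, followed by the zinc finger gene *SZF1* (CARHR166060) with 3.51 and *MYB120* (CARHR268350) with 3.45. *GL3* (CARHR213010), which promotes trichome formation in *A. thaliana*, had 3.30 in exon 6 of 8, and a C2H2 zinc finger gene (CARHR084980) had 3.15. *WRKY29*, the homeodomain gene *BLH5* and *MYB112* followed, and the lowest was *EMB2749* (CARHR012570), which encodes NAC domain-containing protein 7, with 2.40. NAC domain-containing protein 7 belongs to the same family as ChCUC1.

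The 5 kinase genes had a median of 2.99, and 2 were called in all 3 lists. They were the receptor kinase genes *RLK902* (3.50) and *ARK3* (3.38), *NPH1* (2.99), the blue light receptor phototropin of *A. thaliana*, whose peak was in exon 8 of 21, CARHR154740 (2.94) and *RBK2* (2.87). The 9 cytochrome P450 and glycosyltransferase genes had a median of 2.86, and 5 were called in all 3 lists. Their highest values were 3.72 at a UDP-glycosyltransferase-like gene (CARHR155090), 3.66 at an O-fucosyltransferase gene (CARHR211420) and 3.24 at *CYP78A5* (CARHR014110), which promotes organ growth in *A. thaliana*. *CYP708A3* had 3.02, *SIP1* 2.86 and *CYP85A2* 2.73. These 2 groups held 14 genes, of which only the glycosyltransferase-like and the O-fucosyltransferase gene and *RLK902* exceeded the median of all members.

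The hormone group shares *CYP78A5* and *CYP85A2* with the P450 genes, and the description of *CYP78A5* names no hormone. *YDK1* (CARHR245770), which encodes the auxin-conjugating enzyme GH3.2, had 3.32 in exon 3 of 3, *CYP78A5* 3.24, *ACS2* (CARHR000890), for a synthase of the ethylene precursor, 3.11, and *CYP85A2* (CARHR153250), for the last step of brassinolide synthesis, 2.73. Of these 4 genes, or of the 3 without *CYP78A5*, only *CYP85A2* was called in all 3 lists, and the others were missing from the shorter one. The 3 glucosinolate and sulfate genes were *AKN2* (CARHR246760), an adenylyl-sulfate kinase, with 5.54, and the genes *ESM1* (2.81) and *NSP4* (2.79), whose products shape glucosinolate breakdown. *AKN2* was called in all 3 lists, with 5.21, 5.23 and 5.30, and *ESM1* and *NSP4* in 2.

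The 7 chaperone and stress protein genes had a median of 3.75, and each was called in all 3 lists. A late embryogenesis abundant gene (CARHR178870), of a family that protects drying cells, had 6.09 in exon 2 of 2, with 5.97, 5.20 and 7.34, and a further one (CARHR092850) had 4.41. A DnaJ-domain chaperone gene (CARHR064280) had 4.24, *FKBP65* (CARHR183440) 3.75, an HSP20-like gene (CARHR042670) 3.72 and a heat shock protein-related gene (CARHR237840) 3.48. *BIP3* (CARHR008970), the Hsp70 chaperone of the endoplasmic reticulum, had the lowest value, 3.22.

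**Figure D5:**
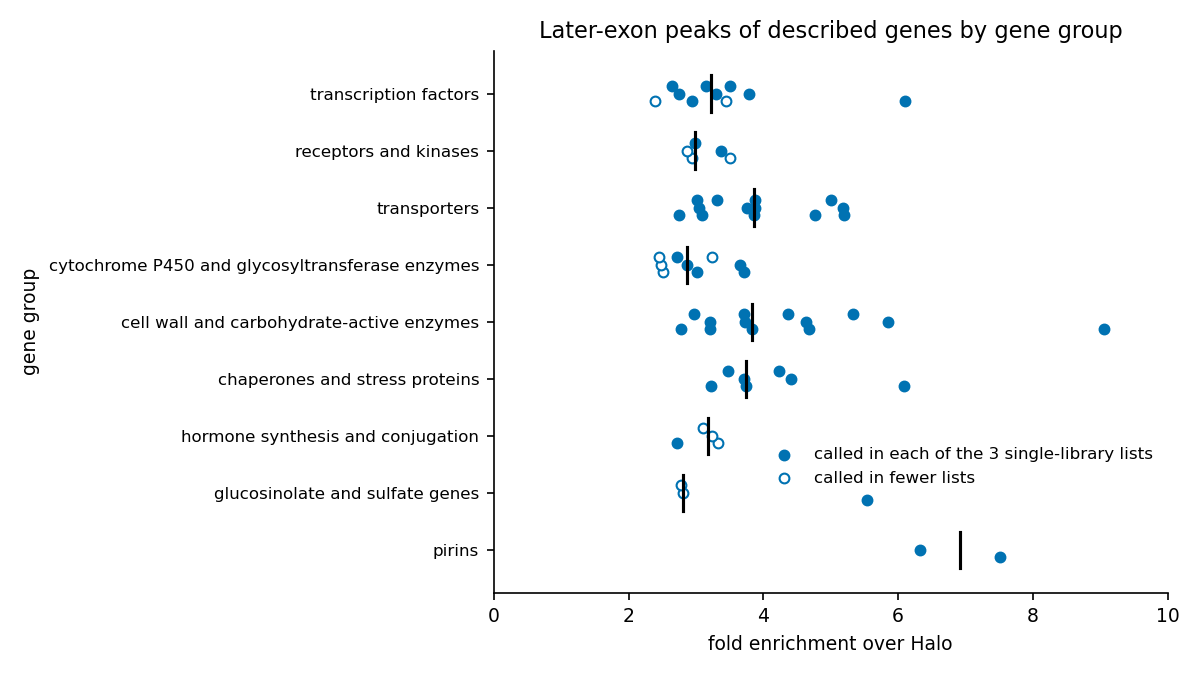
Fold enrichment over Halo (horizontal axis) of the later-exon peaks of described genes by gene group, with the group median as a black bar. Filled points were called in each of the 3 single-library lists and open points in fewer. All 13 transporters, all 13 cell wall and carbohydrate enzymes and all 7 chaperone and stress genes are filled, whereas 1 of the 4 genes of the hormone group, or of the 3 without *CYP78A5*, is. *CYP78A5* and *CYP85A2* appear in 2 groups.

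The pirins, cupin-fold proteins, of which *PRN* binds a G protein subunit in *A. thaliana*, had their peaks at the same place. The pirin-like gene CARHR138190 on chromosome 4 and *PRN* (CARHR169610) on chromosome 5 each held a peak in exon 7 of 7, at 1471 and 1387 bp from their starts. A further gene, CARHR169640, the match of AT3G59260 and a neighbour of *PRN*, also held its peak in exon 7 of 7, at 1212 bp. *PRN* had a fold enrichment of 6.33, with 6.28, 6.00 and 5.67 in the single-library lists, and CARHR169640 had 5.13, with 5.09, 5.55 and 3.69. *PRN* held a further peak at its promoter-TSS with 2.39, well below that in its last exon. Near-identical copies can share reads, and how reads with more than 1 match were treated was a detail not given in the sources used here.

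In the 6 genes with 2 later-exon peaks, the peaks were from 655 to 2065 bp apart, by their summits. CARHR062360, the match of AT1G69440, held the strongest pair, with 7.23 in exon 2 and 3.77 in exon 3, and a spacing of 2065 bp. CARHR271430, the match of AT5G57670, had 5.51 in exon 5 and 2.92 in exon 8 of its 10 exons. CARHR048110 had 3.87 and 2.62, both in exon 6, CARHR045650 had 3.45 in exon 2 and 2.67 in exon 3, and CARHR279800 had 3.40 in exon 2 and 3.23 in exon 3. In CARHR267010 both peaks were in exon 2 of 2, with 2.42 and 3.03. In 5 of the 6 genes the peak nearer to the gene start had the higher value. For CARHR045650 and CARHR267010, the longer pseudoreplicate list held 1 peak over both, so its value is the same for each.

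Besides these pairs, 33 of the member genes had the nearest start to a further annotated peak of another position. These further peaks were assigned by nearest start, not by the gene that holds them. A peak inside a member gene but nearer to another start was thus not counted. Of these 34 further peaks, 9 were at promoter-TSS, 7 in distal promoters, 6 in introns, 5 in intergenic DNA, 4 at transcript ends and 3 in first exons. The 5 intergenic peaks all lay upstream, the farthest at -51045 bp from the start of CARHR119720. They are thus not read as further sites of the member genes. *IQD4* had 4.24 at 506 bp upstream of its start, against 7.48 in its last exon. CARHR129030 had 2.74 in the distal promoter, against 8.47 in exon 5. The highest of the further peaks, with 7.02, was at the promoter-TSS of CARHR207340.

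The study counts 28 genes as high-confidence targets, chosen for a response to ChCUC1, a ChIP-seq peak and a DAP-seq peak, and 6 of them held a later-exon peak. These were *CAD-5* (9.06), *WRKY61* (6.10), *FKBP65* (3.75), the tonoplast aquaporin gene *TIP4;1* (CARHR115430, 3.02), CARHR154740 (2.94) and *MYB112* (CARHR037630, 2.65), with a median of 3.38. *TIP4;1* had 3.0, 2.77 and 3.32 in the single-library lists, *MYB112* had 2.51, 2.86 and 3.02, and *FKBP65* had 3.77, 3.57 and 3.14. CARHR154740 was called in the whole-library list alone, with 3.59. *WRKY61*, *TIP4;1* and *MYB112* held their peaks in the last exon. A DAP-seq peak was a condition for this list, so the presence of these 6 genes on it is no separate evidence of binding. Later-exon peaks were 19.0% of the annotated peaks, and the count of targets with peaks at other positions was not computed.

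Of the 22 described genes in no group, the highest after those among the top 15 were an uncharacterized gene (CARHR181280) with 5.09 and *ECA2* (CARHR249430) with 4.63. The lowest was CARHR289580 with 1.94. *AOX1A* (CARHR098260), the alternative oxidase of mitochondria, had 2.63, a proline dehydrogenase gene (CARHR288760) 2.98 and *NDL1* (CARHR270500) 3.35.

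Some later-exon peaks lay in genes whose *A. thaliana* matches neighbour each other. There were 32 such groups, with 78 peaks, in which each match lay within 100 ID numbers of the next on 1 chromosome. The count of such groups among peaks at other positions, or among all annotated peaks, was not computed. The 32 groups are thus not read as a trait of later exons. In *C. hirsuta*, 30 of the groups were on a single chromosome or scaffold. In 8 groups the peaks were in the same exon number, and in 3 of these the genes also had the same number of exons. CARHR028810 and CARHR028880, the matches of AT1G29440 and AT1G29430, held theirs in exon 2 of 2 at 262 and 220 bp from their starts, with 4.33 and 3.84. CARHR211690 and CARHR211740 held theirs in exon 3 of 5, with 4.89 and 3.01, and the third such group was *PRN* with its neighbour. CARHR122450, CARHR122640 and CARHR122660, the matches of AT2G29350, AT2G29360 and AT2G29370, all held a peak in exon 2, at 293, 359 and 374 bp, with 3.44, 3.69 and 3.36. These 3 values differed by at most 1.10 times, and within each single-library list they were 3.51, 3.63 and 3.13, then 3.56, 4.17 and 2.92, then 2.94, 2.63 and 3.39. On the same stretch of chromosome 4, CARHR122440 and CARHR122630, for which no match was given, also held a peak in exon 2, at 320 and 328 bp, with 2.57 and 3.25, and both were called in 2 lists. Over these 5 genes the highest value was 1.43 times the lowest. The groups on 1 chromosome or scaffold spanned a median of 33735 bp, and up to 1440503 bp. Over the 32 groups, the highest fold enrichment was a median of 1.42 times the lowest, and up to 3.52 times. The same ratio for members that are not neighbours was not computed. The part of shared reads in these fold enrichments was not tested.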

How the data were processed

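ChCUC1 DAP-seq was measured in 3 ChCUC1_halo and 3 halo samples, and the deposited peak lists were used. Bowtie, MACS2 and bedtools are named in the submitters' processing notes, with versions and genome build not given in the sources used here. By the list names, single libraries had duplicates removed and were called by the authors with pooled Halo reads as control and a p-value limit of 0.01. The authors deposited for each peak its fold enrichment (a ratio over the control), the −log10 p-value, the −log10 q-value, the summit position and, in the reproducible list, a score from 540 to 1000. No list carries read counts, so the depth is unknown.

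Positions, exon numbers, distances, matches and names came from the study's datasets, of which the last 435 annotation rows were not used here. The gene table for names of a different assembly matched 0 of the gene IDs, and no sequence was read. The columns of response to ChCUC1 hold the authors' own comparisons and were not used. Peaks were compared with Python 3.11.15, pandas 2.3.3, NumPy 2.4.6, SciPy 1.17.1 and statsmodels 0.14.6, and drawn with matplotlib 3.10.9. Log2 fold enrichment and width were fitted over all annotated peaks by position (HC3 standard errors, 6 contrasts, Benjamini-Hochberg), a fit tested on simulated data. Shares have 95% exact binomial intervals, and 9 shares were compared by Fisher's exact test.

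Named genes were the 15 highest peaks, genes with 2 peaks, members among the 28 targets, up to 6 described genes per group by fold enrichment, and groups of neighbouring matches; other genes named (the lowest of a group and single cases) were chosen after their values were seen. The members and lists were chosen with earlier results of these data known. Alternatives were other overlap rules, top-score peaks, a q-value limit, −log10 p, each single list, and distance limits.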

Additional observations from a re-analysis of the deposited data

How the results depend on the processing

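No paired analysis was possible because replicate numbers are missing from the lists, and all were called with 1 pooled control. Of the alternatives, 80 values stayed on their side of the threshold or within their limits, and the exceptions follow. Some of the 80 could not change, as stated below for the alternatives concerned. With top-score peaks only, the median fold enrichment was 3.69 rather than 3.43, and the ratio of later exons to introns 1.003 (n = 320 later-exon peaks, adjusted p = 0.893, linear model) rather than 0.99. With −log10 p in place of fold enrichment (n = 379), the ratio was 1.023 to introns (adjusted p = 0.657), 1.15 to promoter-TSS (adjusted p = 0.00537) and 1.16 to distal promoters (adjusted p = 0.00747), so the last 2 passed. The annotated peaks of all positions were cut at a −log10 p of 26.4, the same measure. These contrasts thus cover only peaks above that limit, and the positions of the 435 peaks below it were not used. The ratio to promoter-TSS was 1.05 in the longer pseudoreplicate list (n = 373, adjusted p = 0.0386) and 0.997 (n = 300, adjusted p = 0.904) in the shorter one, where those to transcript ends and intergenic DNA, 1.05 and 1.05, no longer passed (adjusted p = 0.391). Where the overlap had to cover 50% of each peak, the lists called 98.7%, 93.4% and 16.1% of the members, and 56 rather than 296 were called in each. A peak of 225 bp, the median in the shorter list, cannot cover 50% of one of 502 bp. When any peak with its summit within 100 bp was a call, whichever peak overlapped most, the shares in the whole-library and the longer list were 98.7% and 93.7%. The shorter list called 73.6% at a q-value under 0.05. With each list left out in turn, from 296 to 373 peaks were called in the others. The 296 without the whole-library list was fixed in advance, because that list called all 379. First exons of genes with 2 or more exons only, an alternative chosen after seeing the data, could alter only the contrast with first exons. That ratio was 1.03 (n = 114 first-exon peaks, adjusted p = 0.34, linear model) and again did not pass. Apart from the widths, the cause was not tested. Depth is unknown, and the annotation rows not used hold the weakest peaks.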
